A study of Mus musculus with 36 samples.

Results

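The comparison set C2C12 myotubes harvested 120 min after electrical pulse stimulation (EPS) against unstimulated control myotubes of the same time point. It comprised 6 of the 36 samples of a bisulfite sequencing series, 3 control and 3 EPS samples, chosen by their labelled treatment and time. The other 30 samples were control and EPS myotubes harvested at 0, 30, 60, 180 and 240 min. C2C12 is an established mouse muscle cell line, grown to near confluence and then switched to horse serum until myotubes had formed, and EPS makes such myotubes contract in the dish. All 6 samples came from this line and differentiation procedure, with no genetic change named, and as labelled the groups differed only in EPS. The 3 replicates of a group were independent experiments. A single line in culture, without nerve or other tissue, is what the comparison can speak for, and no expression marker of myotubes was measured in these DNA samples, so the labelled cell type could not be checked.

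Promoter DNA of Nr4a3, Ccnd1 and Ppard was read after bisulfite conversion, and the deposited value of a cytosine is a methylation percentage. Of the 171 listed cytosines, 117 had a value in every sample of the series and were used. Of these, 79 lie between the primers of an amplicon, 7 within a primer, where the base read is that of the primer, and 31 outside the amplicons. How the values of the last 2 kinds were obtained is not given in the sources used here. Neighbouring cytosines often had close values, whether CpG or not, so a single value may not be a separate reading. A block is a run of listed cytosines of a gene with no gap over 200 bp. There were 6 blocks, and 5 of them held used cytosines. Each block was summarised by the mean percent over its used cytosines in each sample. Cytosines with any value numbered 140 in each control sample, and 171, 140 and 117 in EPS replicates 1, 2 and 3. The values are percentages without read counts, so the depth behind each of them is unknown and no counting error can be given.

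Cytosine methylation in mammals sits mainly at CpG dinucleotides, and CpG-rich promoters are usually kept at low methylation, whereas dense promoter methylation goes with silent genes. Bisulfite treatment converts unmodified cytosine and spares both methylcytosine and hydroxymethylcytosine, so the percent values are the sum of these marks. Ppard encodes PPARδ, a nuclear receptor that drives fatty acid oxidation genes in muscle, Nr4a3 encodes an orphan nuclear receptor that contraction induces quickly, and Ccnd1 encodes cyclin D1, which takes cells through the G1 phase of the cell cycle.

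The sequences of 3 blocks and of the end of another are given because the differences and the outlying samples described here lie in them. They were read from GRCm38 (mm10), 5′ to 3′ on the strand of the gene, with capitals at the used cytosines. The upstream Ppard block, chr17:28232454-28232627 on the plus strand, held 12 used CpG cytosines from −300 to −127 bp of the transcription start site (TSS), where the annotation lists no gene. The intronic Ppard block, chr17:28233460-28233606, held 8 cytosines from 706 to 852 bp downstream of the TSS, 5 of them CpG. The near Ccnd1 block, chr7:144940258-144940435, is written on the minus strand, from which Ccnd1 is transcribed, and held 16 cytosines, 12 of them CpG, listed at 389 to 566 bp and lying upstream of the gene. The end of the distal Nr4a3 block, chr4:48043028-48043103 on the plus strand, held 15 cytosines from −2125 to −2050 bp, all outside the amplicon that the primers span.
upstream Ppard: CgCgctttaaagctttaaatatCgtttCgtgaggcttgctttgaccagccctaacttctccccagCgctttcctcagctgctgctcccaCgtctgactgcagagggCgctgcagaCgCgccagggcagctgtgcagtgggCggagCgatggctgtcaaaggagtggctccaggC
intronic Ppard: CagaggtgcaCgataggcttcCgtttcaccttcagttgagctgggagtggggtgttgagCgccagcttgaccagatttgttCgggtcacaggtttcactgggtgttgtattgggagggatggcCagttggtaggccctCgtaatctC
near Ccnd1: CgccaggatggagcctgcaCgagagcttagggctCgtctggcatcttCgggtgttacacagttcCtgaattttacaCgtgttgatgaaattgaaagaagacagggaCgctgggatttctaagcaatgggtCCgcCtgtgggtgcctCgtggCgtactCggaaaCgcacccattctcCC
end of distal Nr4a3: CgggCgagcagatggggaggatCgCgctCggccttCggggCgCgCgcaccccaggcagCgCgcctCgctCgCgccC

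Upstream of Ppard, mean percent methylation was higher in every EPS sample than in every control sample at 120 min. The block mean was 1.36%, 2.09% and 2.21% in control replicates 1, 2 and 3, and 2.70%, 3.05% and 2.94% in EPS replicates 1, 2 and 3. The groups did not overlap, and the lowest control sample was replicate 1. The control myotubes had a mean of 1.89% ± 0.462 (SD, n = 3) and the EPS myotubes one of 2.90% ± 0.177 (SD, n = 3), a difference of 1.01 percentage points and a ratio of 1.53. The exact two-sided permutation test over the 20 assignments of the 6 samples gave p = 0.1, the smallest value that 3 against 3 can give, and 0.5 after Benjamini-Hochberg adjustment over 5 blocks. The separation held for the mean percent and not on every scale. With log2(beta/(1 − beta)), where beta is the methylation level as a fraction, averaged over the cytosines, the values were −7.67, −6.82 and −6.95 in control and −6.12, −6.86 and −5.71 in EPS replicates 1, 2 and 3, so EPS replicate 2 fell below control replicate 2 (difference 0.92, exact permutation p = 0.2). These averages depend on the limit set for beta, which was kept at 0.001 or more. EPS replicate 2 read 0.0358% at −160 bp and 0 at −155 and −127 bp, below that limit. Control replicate 2 read 0.191%, 0.172% and 0.126% there. The block average was not computed with another limit. After subtraction of each sample's mean over the cytosines of the other blocks, EPS replicate 3 (−0.0875 percentage points) lay below control replicate 3 (0.118). Those other cytosines include the last 6 of Nr4a3, at 20% in EPS replicate 3 and 6.34% in control replicate 3. Centring without them was not run. The difference did not pass the threshold of 0.05, and no block could have passed it in this exact test. This was 1 of 5 blocks without overlap at 120 min (20%), and 1 of 30 when the same count was taken over all blocks and time points (3.33%).

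**Figure D1:**
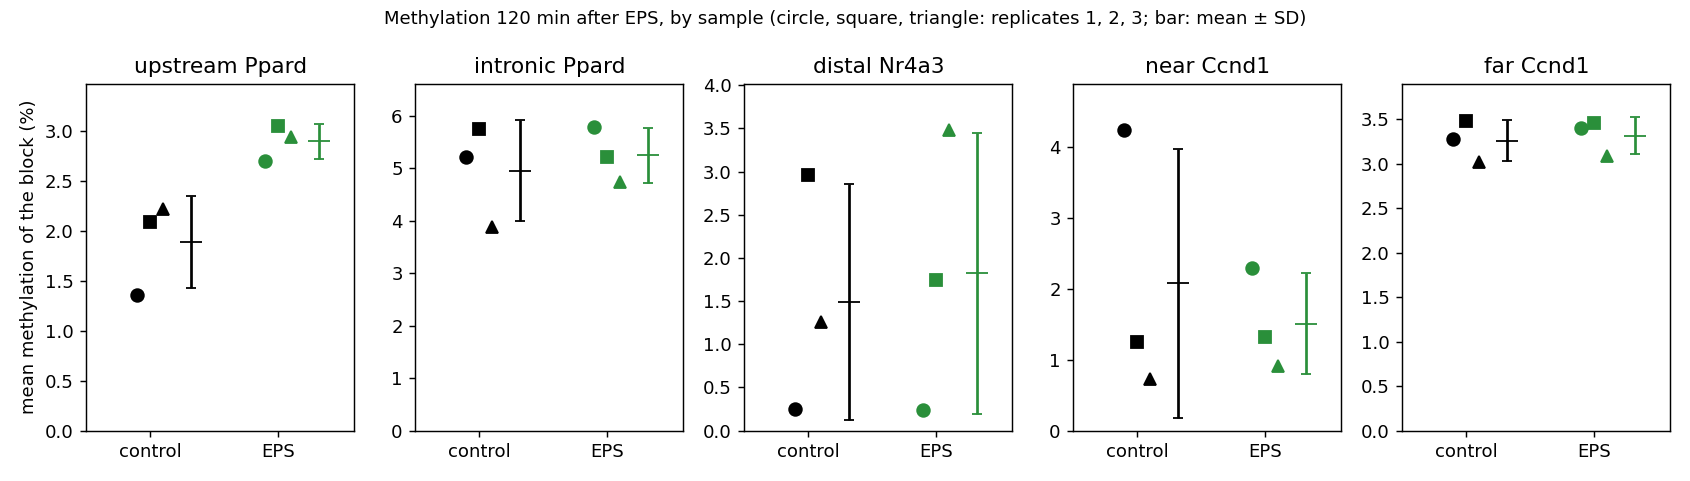
Mean methylation in percent (vertical axes, each starting at 0) of each of the 5 blocks at 120 min in control (black) and EPS (green) myotubes, with circles, squares and triangles for replicates 1, 2 and 3 and bars for mean ± SD. In the upstream Ppard panel the EPS samples (2.70% to 3.05%) sit above the control samples (1.36% to 2.21%), and in the other 4 panels the groups overlap.

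All 12 used cytosines of the upstream Ppard block had a higher mean in EPS myotubes. In all 6 samples methylation was lower at the TSS side of the block than at the far side, and the first 6 cytosines were those whose groups did not overlap. At −300 bp the control values were 3.41%, 5.02% and 5.18% and the EPS values 6.05%, 7.75% and 5.31%. At −273 bp, the cytosine with the highest level of the block, they were 3.56%, 5.10% and 5.70% against 6.39%, 7.78% and 6.41%. EPS replicate 2 was the highest sample and control replicate 1 the lowest at both positions, and at −300 bp EPS replicate 3 lay only just above the highest control. Over the 4 cytosines from −300 to −273 bp the means were 4.65% ± 1.02 (SD, n = 3) and 6.57% ± 1.04 (SD, n = 3), a ratio of 1.41.

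Further towards the TSS the order of the EPS samples changed. At −235 bp the control values were 1.65%, 2.38% and 2.82% and the EPS values 3.25%, 3.55% and 3.84%, and at −211 bp they were 0.670%, 1.09% and 1.21% against 1.63%, 1.48% and 2.76%. EPS replicate 3 was now the highest sample. Over both cytosines the ratio of EPS to control means was 1.68. Over the last 6 cytosines, from −194 to −127 bp, the control means were 0.00491%, 0.231% and 0.146% and the EPS means 0.463%, 0.0998% and 0.926%. There the groups overlapped, because EPS replicate 2 lay below 2 of the controls (exact permutation p = 0.3). The last of these, at −127 bp, read 0 in 2 control and 2 EPS samples, 0.126% in control replicate 2 and 0.255% in EPS replicate 1.

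**Figure D2:**
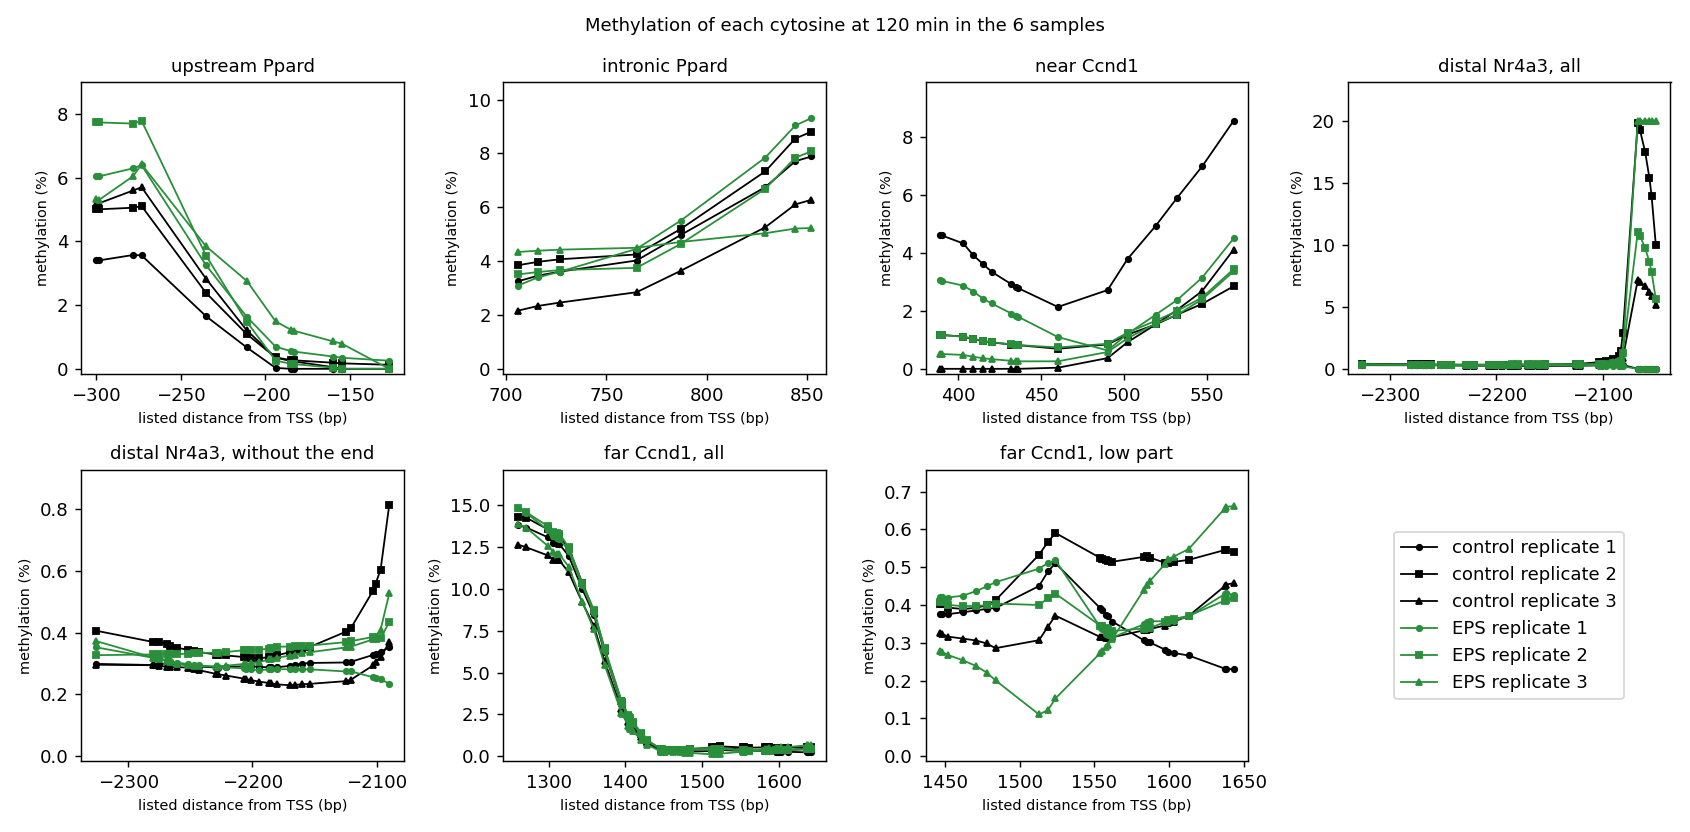
Methylation in percent (vertical axes) of each cytosine at 120 min against its listed distance from the TSS in bp (horizontal axes), 1 line per sample, control in black and EPS in green; the Nr4a3 and far Ccnd1 blocks are drawn whole and again over their low part. The green lines lie above the black ones over the first 6 upstream Ppard cytosines, control replicate 1 lies above all others at the 16 near Ccnd1 cytosines, and EPS replicate 3 is the flattest line in the intronic Ppard block.

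The single cytosines were tested with limma on log2(beta/(1 − beta)), with 12 group means over 36 samples. At 120 min 0 of 117 cytosines passed at an adjusted p of 0.05 and 2 at an unadjusted p of 0.05 (1.71%), both upstream of Ppard. The count of 2 became 7 without control replicate 1 or without EPS replicate 2, and 0 without EPS replicate 3 or with sample weights. At −211 bp the log2 difference was 0.99 with an SE of 0.38 (limma, unadjusted p = 0.0150, adjusted p = 1.00). At −235 bp it was 0.68 with an SE of 0.33 (limma, unadjusted p = 0.0497, adjusted p = 1.00). Over all 5 blocks, 64 cytosines had a higher and 53 a lower mean percent after EPS, and with log2 values 73 were higher and 44 lower. The EPS samples lay above all controls at 6 of the 117 cytosines (5.13%), all upstream of Ppard, and below all controls at 0. These 6 are not separate observations, since values of neighbouring cytosines of this block moved together over the 36 samples with a median correlation of 0.984.

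The other samples of the series place the upstream Ppard values at 120 min within a wide range. The block mean of the 15 controls of other time points ran from 0.975% to 5.69% with a median of 2.46%. Of those 15 controls, 10 lay above the highest 120 min control, 6 above the lowest EPS sample of 120 min and 4 above the highest. The 15 EPS samples of other time points ran from 1.24% to 3.39% with a median of 2.19%, and 4 of them lay above the lowest EPS sample of 120 min. The 120 min controls were thus low among controls, and the EPS samples lay inside the range of controls from other times. Against all 18 controls (2.54% ± 1.14, SD) the EPS difference at 120 min was 0.356 percentage points (exact permutation p = 0.592).

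The sign of the upstream Ppard difference changed with time. EPS minus control was −0.326 percentage points at 0 min, −1.89 at 30 min, 0.320 at 60 min, 1.01 at 120 min, 0.545 at 180 min and −0.273 at 240 min. Control means were 2.40% ± 0.353, 4.17% ± 1.63, 2.40% ± 1.22, 1.89% ± 0.462, 2.06% ± 1.05 and 2.33% ± 0.604 (SD, n = 3) in that order of times. The EPS means were 2.08% ± 0.873, 2.28% ± 0.508, 2.72% ± 0.641, 2.90% ± 0.177, 2.60% ± 0.452 and 2.06% ± 0.220 (SD, n = 3). The control means spanned 2.28 percentage points over time and the EPS means 0.839, but without 30 min the control means spanned 0.517, less than the EPS means. The 120 min groups had both the lowest control mean and the highest EPS mean. In limma the 120 min difference exceeded the mean difference of the other 5 time points by 0.77 on the log2 scale (SE 0.43, 95% interval −0.13 to 1.66, unadjusted p = 0.0896, adjusted p = 0.448), so a difference between time points was not shown. With the median over the cytosines in place of the mean the excess was 1.71 (limma, adjusted p = 0.0641).

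**Figure D3:**
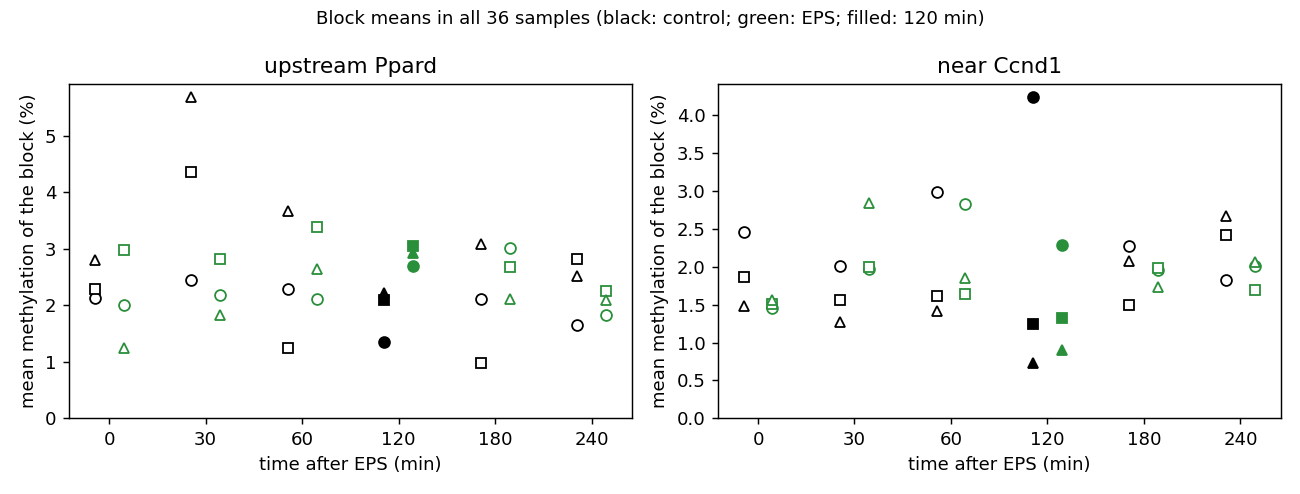
Mean methylation in percent (vertical axes) of the upstream Ppard and near Ccnd1 blocks in all 36 samples against the time after EPS in min (equally spaced categories), control in black and EPS in green, with filled symbols at 120 min. The EPS samples of 120 min lie inside the range of the other controls (0.975% to 5.69%) upstream of Ppard, and near Ccnd1 control replicate 1 at 120 min (4.24%) lies above every other sample.

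In the intronic Ppard block, no difference between the groups exceeded the spread of the replicates. The block mean was 5.21%, 5.75% and 3.89% in control and 5.78%, 5.22% and 4.73% in EPS replicates 1, 2 and 3. The groups overlapped, with EPS replicate 1 highest by a narrow margin and control replicate 3 lowest. The means were 4.95% ± 0.960 and 5.24% ± 0.527 (SD, n = 3), which differ by 0.295 percentage points (exact permutation p = 0.6, adjusted p = 0.9). Without control replicate 3 the difference was −0.236, and without EPS replicate 1 it was 0.0260. It was 0.697 without control replicate 2 and 0.552 without EPS replicate 3.

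The shape of the intronic profile, rather than its mean, set EPS replicate 3 apart. Over the 7 cytosines between the primers, from 716 to 852 bp, methylation rose in the 3 controls from 3.46% to 7.89%, from 3.97% to 8.81% and from 2.34% to 6.28%. In EPS replicates 1 and 2 it rose from 3.40% to 9.31% and from 3.60% to 8.08%. In EPS replicate 3 it went from 4.39% to 5.23%, a ratio of 1.19 where the other 5 samples had ratios of 2.22 to 2.74. That sample was the highest of the 6 at 3 of the 7 cytosines and the lowest at 3. Of all 8 cytosines, 6 had a higher mean after EPS and 2 a lower one. The limma log2 difference went from 0.28 (SE 0.23) at 706 bp, a non-CpG cytosine within a primer, and 0.25 (SE 0.21) at 716 bp to −0.05 (SE 0.20) at 852 bp (adjusted p = 1.00 for each). Without control replicate 3 it was 0.0312 at 706 bp and 0.0251 at 716 bp, and with sample weights 0.0462 and 0.0385.

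The distal Nr4a3 block, chr4:48042827-48043103, held 38 cytosines from −2326 to −2050 bp, 33 of them CpG, where no gene is annotated. Its mean was 0.256%, 2.96% and 1.25% in control and 0.236%, 1.74% and 3.48% in EPS replicates 1, 2 and 3. The groups overlapped fully, with replicate 1 of each group lowest. The difference was 0.331 percentage points (1.49% ± 1.37 against 1.82% ± 1.63, SD, n = 3, exact permutation p = 0.8, adjusted p = 0.9). Leaving out control replicate 1 gave −0.286 and leaving out EPS replicate 3 gave −0.502, whereas leaving out control replicate 2 or EPS replicate 1 gave 1.07 or 1.12.

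Nearly all of that spread came from 6 cytosines at the TSS side of the block. From −2067 to −2050 bp the mean was 0%, 16.0% and 6.34% in control and 0%, 8.92% and 20% in EPS replicates 1, 2 and 3. EPS replicate 3 read 20% at each of the 6 cytosines, whereas control replicate 2 fell from 19.8% at −2067 bp to 9.97% at −2050 bp. In the 15 controls of other time points these cytosines ran from 0% to 75% with a median of 5.44%. Without them the block difference at 120 min was −0.0194 percentage points, the opposite sign. In limma the log2 difference was 0.23 (SE 2.55) at −2067 bp and 0.44 (SE 2.51) at −2050 bp (adjusted p = 1.00 for both).

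Over the 22 Nr4a3 cytosines between the primers, methylation was low and close in all 6 samples. Control replicates 1, 2 and 3 had 0.293%, 0.338% and 0.260%, and EPS replicates had 0.291%, 0.341% and 0.308%. The groups overlapped, with EPS replicate 2 just above control replicate 2. The means were 0.297% ± 0.0394 and 0.313% ± 0.0256 (SD, n = 3), which lie 0.0164 percentage points apart (exact permutation p = 0.5). Among all 38 cytosines of the block the smallest limma p fell at −2180 bp, between the primers, where the log2 difference was 0.18 (SE 0.13, adjusted p = 1.00). With a replicate left out it ran from 0.0472 to 0.29 there. At −2326 bp, the first cytosine of the block and outside the amplicon, the log2 difference was 0.09 (SE 0.11, adjusted p = 1.00). It ran from 0.00817 to 0.24 with a replicate left out. The proximal Nr4a3 block, from −260 to −45 bp, had 23 listed cytosines and no used one. It read 0 in the 5 samples with values at 120 min, and EPS replicate 3 had no value there.

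Near Ccnd1 the block mean was lower after EPS in percent and in limma on its log2 value, and this direction depended on control replicate 1. All 16 cytosines had a lower mean percent after EPS, whereas with the log2 value taken at each cytosine 10 of them were higher and 6 lower, and the average of these values over the block was 0.0853 higher. The block mean was 4.24%, 1.25% and 0.730% in control and 2.29%, 1.33% and 0.905% in EPS replicates 1, 2 and 3. All 3 EPS values lay between the highest and the lowest control. Control replicate 1 was the highest of the 6 samples at 16 of 16 cytosines, and control replicate 3 the lowest at 12. The difference was −0.568 percentage points (exact permutation p = 0.9, adjusted p = 0.9), and without control replicate 1 it was 0.516. In the 15 controls of other time points the block mean ran from 1.27% to 2.98%, so control replicate 1 lay above all of them and control replicates 2 and 3 below.

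The near Ccnd1 profile dipped in the middle of the block. At 389 bp the control values were 4.62%, 1.17% and 0% and the EPS values 3.05%, 1.16% and 0.514%. At 566 bp they were 8.55%, 2.85% and 4.11% against 4.50%, 3.44% and 3.36%. Control replicate 3 was listed at 0 over the 9 cytosines from 389 to 436 bp, where EPS replicate 3 had a mean of 0.379%, but was the third highest sample at 566 bp. The 10 cytosines from 389 to 460 bp were those whose sign differed between the scales. At 389 bp the log2 difference was 0.58 (SE 0.81) and the difference in percentage points −0.358. The log2 value rests on the limit set for beta, since control replicate 3 was at 0, and was 0.91 with a limit of 0.0005 and 0.24 with one of 0.002. At 532 and 566 bp the log2 difference was −0.47 (SE 0.42) and −0.34 (SE 0.39), and the limma adjusted p was 1.00 for all 3 cytosines.

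The far Ccnd1 block, chr7:144941129-144941512, held 43 cytosines listed at 1260 to 1643 bp, 25 of them CpG, and also lies upstream of the gene outside any annotated gene. The block mean was 3.28%, 3.48% and 3.02% in control and 3.41%, 3.46% and 3.09% in EPS replicates 1, 2 and 3. The groups covered nearly the same range, with a difference of 0.0606 percentage points (exact permutation p = 0.8, adjusted p = 0.9). Its sign turned between the primers (−0.0290), after centring (−0.182), with log2(beta/(1 − beta)) taken at each cytosine and then averaged (−0.0440), without control replicate 3 (−0.0600) and without EPS replicate 2 (−0.0111). Of the 43 cytosines, 6 lie within a primer. Over the 13 cytosines from 1260 to 1404 bp, which lie outside the amplicon, the means were 9.39% ± 0.584 in control and 9.63% ± 0.545 in EPS myotubes (SD, n = 3, exact permutation p = 0.6). At 1260 bp, the highest cytosine used, the control values were 13.8%, 14.3% and 12.7% and the EPS values 14.8%, 14.8% and 13.9%.

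Between the far Ccnd1 primers methylation was low, at 0.413% ± 0.0827 in control and 0.384% ± 0.0432 in EPS myotubes (SD, n = 3, 23 cytosines). The smallest limma p of the block fell at 1519 bp, where the control values were 0.489%, 0.567% and 0.343% and the EPS values 0.511%, 0.418% and 0.122%. EPS replicate 3 was the lowest sample there, as at 25 of the 43 cytosines, and the other 2 EPS samples lay within the control range. The log2 difference was −0.62 (SE 0.36) at 1519 bp, −0.57 (SE 0.34) at 1524 bp and 0.35 (SE 0.59) at 1643 bp, the last cytosine (limma, adjusted p = 1.00 for each). Without EPS replicate 3 it was 0.0185 at 1519 bp and −0.0307 at 1524 bp.

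Set side by side, the ratio of EPS to control block means on the log2 scale was 0.62 upstream of Ppard, 0.29 at distal Nr4a3, 0.08 in intronic Ppard, 0.03 at far Ccnd1 and −0.46 near Ccnd1. The distance of 1.08 between the highest and the lowest of these did not exceed what reassigning the 6 samples gave (exact permutation p = 0.7), so the blocks were not shown to differ from each other. In limma on the block means the 120 min difference upstream of Ppard was 0.66 (SE 0.40, 95% interval −0.15 to 1.48). It was 0.10 in intronic Ppard (−0.20 to 0.41), 0.20 at distal Nr4a3 (−2.55 to 2.95), −0.17 near Ccnd1 (−1.04 to 0.70) and 0.03 at far Ccnd1 (−0.18 to 0.23), with an adjusted p of 0.992 for each of the 5 blocks. The intervals were narrow at far Ccnd1 and intronic Ppard and widest at distal Nr4a3. Compared with the mean of the other 5 time points, the 4 blocks other than upstream Ppard gave an adjusted p of 0.968 each in limma.

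**Figure D4:**
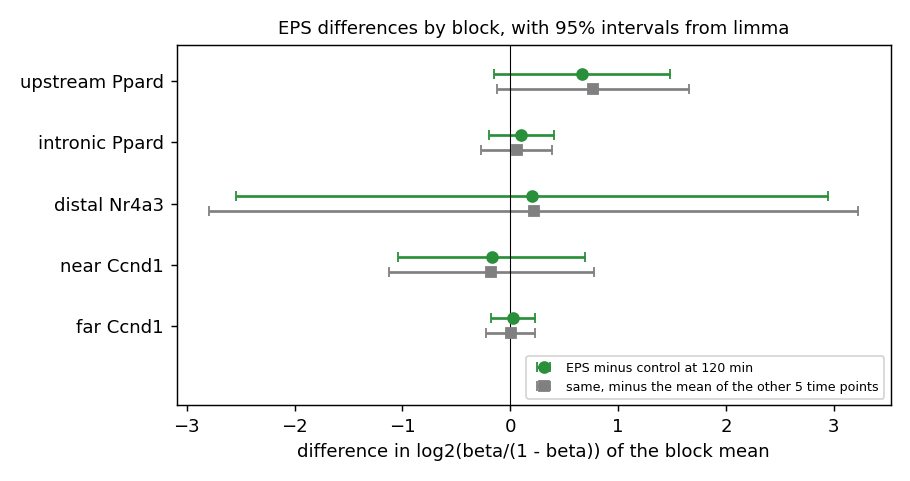
Difference between EPS and control myotubes in log2(beta/(1 − beta)) of the block mean (horizontal axis) with 95% intervals from limma, for 120 min (green circles) and for 120 min minus the mean of the other 5 time points (grey squares). Every interval includes 0, and the upstream Ppard interval at 120 min, from −0.15 to 1.48, lies mostly above it.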

How the data were processed

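DNA of 36 samples of C2C12 myotubes was bisulfite-converted by the authors and amplified with 6 primer pairs. According to the methods and the submitters' processing notes, reads were trimmed with Trim Galore 0.3.7 and cutadapt 1.4.2 and mapped to mm10 with Bismark. The authors deposited methylation in percent. Read counts were not used here, and the depth per sample, and with it the precision, is unknown. Values change smoothly along each amplicon, and whether smoothing was applied is not given in the sources used here. A deposited table of the authors' p-values for EPS against control was not used.

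Samples were grouped by their labels. For control replicate 3 of 0 min the replicate field and the title give different replicate numbers, and the title was used. Distances are genome coordinates minus the TSS, and primers, sequence and annotation were matched to GRCm38. Block means over the 117 complete cytosines were compared by exact two-sided permutation tests, adjusted by Benjamini-Hochberg over 5 blocks (the proximal Nr4a3 block, planned as another, had no complete cytosine). limma 3.58.1 in R 4.3.3 was fitted to log2(beta/(1 − beta)), keeping beta 0.001 or more from 0 and 1, 12 group means and no block. Adjustment covered 702 site tests, 30 block tests or, against the other time points, 5. Other computations used scipy 1.17.1, numpy 2.4.6 and pandas 2.3.3 under Python 3.11.15. The scripts were tested on simulated data.

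Named cytosines were the first, the last and the highest of each block, the smallest limma p of each block and the 5 smallest overall. The blocks, lists and tests were chosen with earlier results of these data known. At 120 min same-numbered samples deviated together (correlations of 0.922, 0.607 and 0.765 over 117 cytosines), so replicate number was treated as pairing samples in an alternative. This rests partly on the last 6 Nr4a3 cytosines, without which the correlations were 0.795, −0.0964 and 0.701. Control replicate 2 also correlated at 0.763 with EPS replicate 3, and at the other time points same-numbered samples ranged from −0.801 to 0.869. The pairing comes from these values and the shared numbers in the labels, and no source names a shared day or culture. Other alternatives changed the scale, the sites, the reference, the limits on beta, the model or left out a replicate, and those without the last 6 Nr4a3 cytosines, with limma on block means in place of the exact test, and with that fit and a replicate block were chosen after seeing the data.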

Additional observations from a re-analysis of the deposited data

Results flagged for a closer look

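Around the Ppard TSS, 31 listed cytosines from −1 to 252 bp had values in only 11 of the 36 samples, 3 controls and 8 EPS samples. They entered no comparison. All of them lie outside the Ppard amplicons, which span −328 to −128 bp and 692 to 891 bp. How their values were obtained is not given in the sources used here. EPS replicate 1 at 120 min had a mean of 1.63% over these 31 cytosines. The 3 controls with values, all of other time points, read 0. In that sample 11 of the 31 cytosines, from −1 to 90 bp, were above 0, the highest at 8.95%. The only other sample above 0 was EPS replicate 2 at 180 min, with a mean of 5.87%. No control of 120 min had a value there, so the groups of that time could not be compared.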

How the results depend on the processing

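No cytosine had an adjusted p under 0.05 in limma under any alternative. The count with an unadjusted p under 0.05 was 2, and 1 on the percent scale, with a mean-variance trend or with every cytosine that had enough values, 0 with sample weights, and 0 to 7 when a replicate was left out (7 without control replicate 1 or without EPS replicate 2, 0 without EPS replicate 3).

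The upstream Ppard difference kept its sign throughout, from 0.745 to 1.17 percentage points with a replicate left out, 0.928 after centring on the other blocks (exact permutation p = 0.2), 0.92 on the log2 scale averaged over cytosines (exact permutation p = 0.2) and 0.356 against all 18 controls. The groups overlapped under the centring and on that log2 scale, which was computed over the block with a beta limit of 0.001 only. Its excess over the other time points stayed between 0.54 and 0.90 with a replicate left out and was 1.71 with the median over sites (limma adjusted p = 0.0641, over all alternatives 0.0641 to 0.968). With replicate number as a block its limma difference was 0.66 (adjusted p = 0.985) and its excess 0.77 (adjusted p = 0.451), and the exact sign-flip test over the pairs gave p = 0.25, the smallest possible. No adjusted p was under 0.05 with or without the replicate block, so there was no call for it to change.

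Other signs were not stable, and the cause was not tested. The distal Nr4a3 difference was −0.0194 without the last 6 cytosines, −0.261 against all 18 controls and −0.502 to 1.12 with a replicate left out. The near Ccnd1 difference was 0.0853 with log2 values averaged over cytosines (limma on the block means kept it negative, at −0.17) and −1.24 to 0.516 with a replicate left out. The far Ccnd1 difference was −0.0290 between the primers, −0.182 after centring, −0.0440 with log2 values averaged over cytosines (0.03 in limma on the block means) and −0.0600 to 0.177 with a replicate left out. The intronic Ppard difference was −0.236 to 0.697 with a replicate left out.

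Against the other time points, distal Nr4a3 gave −0.0151 with the median over sites, −0.0467 without the last 6 cytosines and −0.76 to 1.36 with a replicate left out. Near Ccnd1 gave 0.50 with the median and, with a replicate left out, −0.74 to 0.56. Intronic Ppard gave −0.11 to 0.18 and far Ccnd1 −0.0516 to 0.0578 with a replicate left out. Far Ccnd1 also gave −0.0264 with the median and −0.21 between the primers. All of these are log2 differences. After centring, the differences were −0.0777 percentage points in intronic Ppard and −0.34 percentage points at far Ccnd1. The spread of the block ratios ran from 0.82 to 1.99 with a replicate left out.

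Of single cytosines, the log2 difference was −0.0542 at Nr4a3 −2326 and −0.0611 at Nr4a3 −2067 with sample weights, and −0.358 percentage points at Ccnd1 389. With a beta limit of 0.002 it was 0.24 at Ccnd1 389, 0.12 at Ppard −127 and −0.39 at Ccnd1 1519, and with 0.0005 it was 0.91 at Ccnd1 389. With a replicate left out it ran from −2.14 to 2.72 at Nr4a3 −2067, −1.65 to 2.75 at Nr4a3 −2050, −0.11 to 0.56 at Ppard −127, −0.24 to 0.21 at Ppard 852, −0.95 to 1.85 at Ccnd1 389, −0.77 to 0.0863 at Ccnd1 532, −0.71 to 0.13 at Ccnd1 566, −1.02 to 0.0185 at Ccnd1 1519 and −0.0197 to 0.60 at Ccnd1 1643. An alternative with a coverage minimum was not run, since coverage is unknown.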
